A study of Mus musculus with 18 samples.

Results

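The ovaries of ARE-/- mice were compared with the ovaries of ARE+/- mice across all genes, to ask what the second altered copy of Ifng adds to the first. The comparison used 6 of the 18 RNA sequencing libraries of the study: ARE-/- replicates 2, 3 and 6, and ARE+/- replicates 1, 2 and 4. The 3 WT ovary libraries gave the base level and entered the estimate of the spread, and the uterus of the same genotypes was sequenced in 9 further libraries. All mice were C57B6/J, aged 20 to 25 weeks, without a stated treatment. The sources used here give no cycle stage for these females, and replicate 6 of the ARE-/- group is titled a backup sample. Each library was taken as 1 animal, since the design text counts 3 mice in every genotype.

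ARE stands, as background, for the AU-rich element of the Ifng transcript, a stretch that recruits decay factors and keeps the message short-lived. Interferon gamma, which Ifng encodes, is made by T cells and natural killer cells. It binds the receptor made of Ifngr1 and Ifngr2, activates the kinases Jak1 and Jak2, and leads to a transcriptional response in which Irf1 takes part. The genes it induces include the guanylate-binding proteins (GBP) and immunity-related GTPases (IRG) that attack intracellular parasites, the major histocompatibility complex (MHC), and the chemokines that attract T cells through Cxcr3. In the ovary, follicles mature under pituitary hormones, and after ovulation they become corpora lutea, which make progesterone from cholesterol.

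Each ovary library held 38132822 to 46647171 counts, and levels are given in CPM, counts divided by the TMM-scaled library size. Of 57010 gene IDs, 24457 passed the filter on low counts and were tested. A gene is said to have risen or fallen, or to be called, only at a Benjamini-Hochberg adjusted p under 0.05 in edgeR's quasi-likelihood F-test over the 9 ovary libraries. Markers of oocytes, granulosa, theca and luteal cells were present in every library, as were those of the oviduct, with Ovgp1 at 2440 to 3374 CPM in the 6 libraries compared. Of 2 uterine gland markers, Prss28 was at 0 in all 6 and Foxa2 stood at 5.12 to 7.68 CPM. The libraries did not split cleanly by genotype. On the first principal component (38.0% of the variance), ARE-/- replicate 6 lay at -6.6, among the ARE+/- libraries at 8.9, -21.3 and 47.3, and away from ARE-/- replicates 2 and 3 at 62.7 and 94.8. Mitochondrial transcripts took 3.33% to 3.63% of the counts in ARE+/- and 2.79% to 3.35% in ARE-/- ovaries, and the part of this difference in the results was not tested.

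Ifng itself was a low transcript. It stood at 0.102, 0 and 0.1 CPM in the WT ovaries, at 0.471, 0.213 and 0.718 CPM in the ARE+/- ovaries and at 1.28, 0.966 and 1.24 CPM in the ARE-/- ovaries. The ARE-/- libraries lay above all ARE+/- libraries, from 51, 38 and 50 counts against 18, 10 and 28. The log2 difference was 1.32 ± 0.67 (SE, n = 3 per group) and was not called (adjusted p = 0.638). These counts include each mate of a read pair, so they come from fewer molecules. The altered element was not measured by these counts, so Ifng does not check the labels of the altered copies.

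Between 1 and 2 altered copies, 12 genes rose and 0 fell. All 12 belong to interferon gamma's known target groups or overlap such a gene: 5 IRG-cluster genes on chromosome 11 (Irgm1, Tgtp1, Tgtp2, Ifi47 and Gm12185) and 7 antigen-presentation genes on chromosome 17 (H2-K1, H2-Q4, H2-Q6, H2-Q7, Tap1, Psmb8 and Psmb9). Their ARE-/- levels were 1.87-fold to 2.62-fold the ARE+/- levels. These 2 chromosomes held 7.39% and 4.92% of the genes tested.

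The called genes were 0.0491% of all genes tested for a rise and 0% for a fall. At an unadjusted p under 0.05 there were 1085 higher and 966 lower genes. DESeq2 called 152 higher and 45 lower genes, with all 12 among the higher ones. Of 59 named genes that edgeR did not call, DESeq2 called 15 higher and 9 lower. The adjusted p-values of the 12 lay between 0.0448 and 0.0487, close to the threshold. No gene was called when only genes with at least 1 CPM in 3 libraries were tested, without robust estimation, or in the 6 libraries alone. The fit over all 18 libraries of both tissues, used below for the uterus, also called 0 for this comparison. Leaving out 1 library gave 0 to 14 higher genes: 0 without WT replicate 1, any ARE+/- replicate or ARE-/- replicate 3, 2 without ARE-/- replicate 2, 5 and 7 without WT replicates 2 and 3, and 14 without ARE-/- replicate 6. The sizes moved little, since the log2 differences of the 12 lay between 0.83 and 1.5 over 17 alternatives.

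The regions just before the starts of the called genes are shown because interferon gamma acts on such genes through short DNA motifs. The GAS motif, the gamma-activated sequence, was searched as TTCNNNGAA, and the ISRE, which interferon regulatory factors bind, as GAAANNGAAA, both on either strand. The sequences are RefSeq's, on the GRCm38.p6 build, which is not the annotation used for counting, and all 12 genes were found in that table. Gm12185 was left out, because its start there lies 65064 bases from that of Tgtp1, while the 5′ ends of the counted genes lie 32 bases apart in the files. Within the 250 bases before a start, a GAS match stood in 3 and an ISRE match in 3 of the other 11 genes, 4 having either. Of the 32851 windows searched, which do not cover every chromosome, 7.02% held a GAS match, 2.98% an ISRE match and 9.66% either. The 120 bases before the start are printed for these 4 genes, with matches in capitals.
Tgtp1, chr11:48992247-48992366, minus strand: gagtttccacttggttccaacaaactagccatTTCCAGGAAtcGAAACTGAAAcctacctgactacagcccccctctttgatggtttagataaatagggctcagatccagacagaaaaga
Tgtp2, chr11:49064213-49064332, minus strand: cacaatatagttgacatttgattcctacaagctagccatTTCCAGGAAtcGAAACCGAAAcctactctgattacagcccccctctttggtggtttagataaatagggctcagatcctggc
Irgm1, chr11:48871421-48871540, minus strand: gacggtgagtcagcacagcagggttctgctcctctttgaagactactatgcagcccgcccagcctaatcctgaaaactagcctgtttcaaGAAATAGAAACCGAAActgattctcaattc
Psmb8, chr17:34198075-34198194, plus strand: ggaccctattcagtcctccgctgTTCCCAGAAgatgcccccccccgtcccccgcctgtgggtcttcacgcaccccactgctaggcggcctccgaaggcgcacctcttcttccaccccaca

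Tgtp1 and Tgtp2 carried both motifs, with the ISRE match starting 11 bases after the GAS match, which began at -88 and -81 counted from the start (-1 is the base before it). That spacing, looked up after it was seen here, occurred in 5 of the 32851 windows (0.0152%). The 5 include Tgtp1 and Tgtp2 themselves and the window listed for Gm12185, so they are not an independent background. The promoters of Tgtp1 and Tgtp2 are close copies of each other and are not independent examples. In Irgm1 a pair of ISRE matches overlap, the first beginning at -30, and Psmb8 had a GAS match alone at -97. The letters searched were not found in the windows of the other 7 genes searched.

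Irgm1, an IRG that regulates the other members of its family, stood at 89.9, 81.9 and 95.2 CPM in the ARE+/- ovaries and at 169, 200 and 168 CPM in the ARE-/- ovaries. Every ARE-/- library lay far above every ARE+/- library, and the spread within a group was small. The mean rose from 89.0 ± 6.67 to 179 ± 18.3 CPM (SD, n = 3), a log2 difference of 1.01 ± 0.10 (SE, adjusted p = 0.0448). The gene lies on the minus strand of chromosome 11, at 48756072 to 48762247 as the annotation in the files states it.

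Tgtp1, an IRG that helps to destroy the vacuole around intracellular parasites, stood at 122, 94.1 and 124 CPM in ARE+/- and at 262, 346 and 284 CPM in ARE-/- ovaries. The groups were again apart, with a log2 difference of 1.39 ± 0.16 (adjusted p = 0.0448). Its close copy Tgtp2 stood at 196, 146 and 173 CPM against 385, 516 and 447 CPM, a log2 difference of 1.39 ± 0.18 (adjusted p = 0.0487). Gm12185 overlaps Tgtp1 on the same strand of chromosome 11 (48795483 to 48883053 against 48876154 to 48883085), with 23.7, 17.2 and 25.4 CPM against 48.6, 68.9 and 55.4 CPM. The authors counted a read for every place and gene it matched, so the 3 genes share reads and are not separate measurements. Ifi47, another IRG, had 64.7, 51.5 and 76 CPM in ARE+/- and 121, 159 and 125 CPM in ARE-/- ovaries. Its log2 difference was 1.08 ± 0.15 (adjusted p = 0.0487).

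H2-K1, a classical MHC class I heavy chain that shows peptides to CD8 T cells, stood at 1285, 1085 and 1424 CPM in ARE+/- ovaries and at 2559, 2863 and 2340 CPM in ARE-/- ovaries. The lowest ARE-/- library was thus well above the highest ARE+/- library, and the log2 difference was 1.03 ± 0.12 (adjusted p = 0.0448). H2-Q4, a nonclassical class I gene, stood at 210, 185 and 245 CPM against 432, 510 and 398 CPM, a log2 difference of 1.06 ± 0.13 (adjusted p = 0.0463). H2-Q6 and H2-Q7 are near copies that share reads, and had log2 differences of 1.23 ± 0.17 and 1.26 ± 0.16 (both adjusted p = 0.0487). H2-Q6 had 208, 172 and 227 CPM in ARE+/- and 444, 578 and 401 CPM in ARE-/- ovaries.

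The other 3 called genes prepare the peptides. Tap1, a subunit of the pump that carries peptides into the endoplasmic reticulum, stood at 145, 124 and 143 CPM in ARE+/- and at 257, 274 and 241 CPM in ARE-/- ovaries. It showed the smallest difference of the 12, a log2 of 0.90 ± 0.10 (adjusted p = 0.0448). Psmb9, a catalytic subunit of the immunoproteasome, stood at 57, 43.7 and 60.9 CPM against 107, 109 and 99.9 CPM, a log2 difference of 0.96 ± 0.12 (adjusted p = 0.0463). Psmb8, another such subunit, stood at 100, 77.3 and 102 CPM against 193, 188 and 165 CPM, a log2 difference of 0.97 ± 0.13 (adjusted p = 0.0487). Tap1 and Psmb9 overlap at their starts on chromosome 17 (34406527 to 34416199 and 34400961 to 34406738) and lie on opposite strands. Since no strand was used in counting, reads of the overlap count for both.

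**Figure D1:**
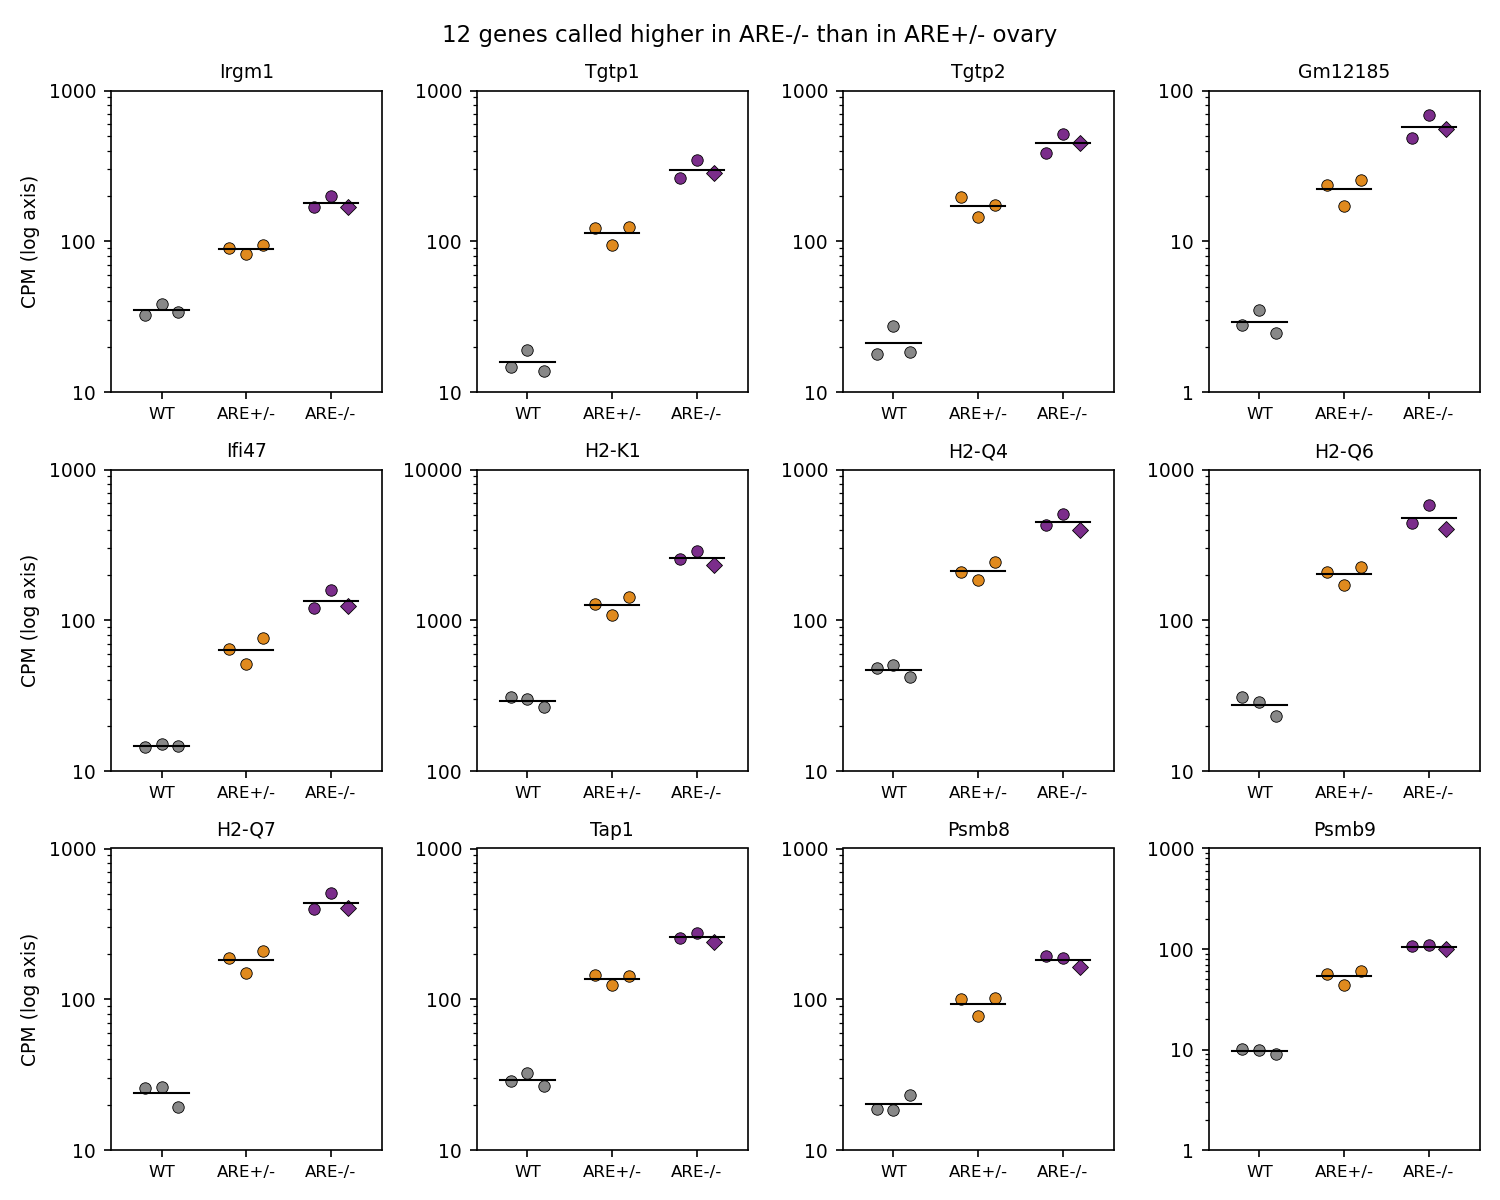
Level in CPM (log axis) of the 12 genes that rose, in each WT, ARE+/- and ARE-/- ovary library. Points are libraries, the diamond is the backup library ARE-/- replicate 6, and bars are means of 3 libraries. In every panel the 3 ARE-/- libraries lie above the 3 ARE+/- libraries, which lie above the WT libraries.

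For each of these genes the first step, from WT to ARE+/-, was larger in log2 than the second. From WT to ARE+/- the 12 log2 differences ran from 1.34 for Irgm1 to 3.01 for Tgtp2, against 0.90 to 1.39 from ARE+/- to ARE-/-. The 2 steps share the ARE+/- libraries, so they are not independent. Counted in CPM, the order was the other way. Tap1 gained 108 CPM at the first step and 120 CPM at the second, from a WT mean of 29.2 CPM, and Irgm1 gained 54.0 and 90.1 CPM. For all 12, the second step was larger than the first in mean CPM. These genes were chosen by their call at the second step, which favours a large second step. The steps in CPM were compared by their means alone and were not tested. The difference between the steps was tested on the log scale, and 0 genes of 24457 were called by edgeR in either direction. The lowest adjusted p was 0.271, and 1373 genes had an unadjusted p under 0.05. Tap1 and Psmb9 had the smaller second steps with the lowest unadjusted p among the 12 (1.5e-05 and 2.21e-05), and differed between steps by -1.33 and -1.51 on the log2 scale. With no filter on low counts Tap1, Psmb9 and Nlrc5 were called for a smaller second step. Psmb9 was also called without ARE+/- replicate 2, and Nlrc5 without ARE-/- replicate 3. The other alternatives called 0.

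Nearly all of the GBP and IRG list lay on the same side, with 19 of 20 members above 0. Of 20 members tested, 4 were called, 18 had all 3 ARE-/- libraries above all 3 ARE+/- libraries, and the median log2 difference was 1.10. Over all genes tested the median was 0.01, and 6.32% were separated upward in this way and 6.67% downward. Igtp, an IRG of the parasite vacuole, stood at 135, 79.0 and 114 CPM against 276, 348 and 281 CPM, a log2 difference of 1.47 ± 0.21 that missed the threshold (adjusted p = 0.0651). Gbp2 stood at 177, 123 and 134 CPM against 271, 308 and 247 CPM (log2 0.93 ± 0.14, adjusted p = 0.0651), and Gbp5, which takes part in inflammasome activation, had a log2 of 1.09 ± 0.24 (adjusted p = 0.271). Iigp1 had 213, 115 and 161 CPM against 328, 414 and 325 CPM (log2 1.13 ± 0.25, adjusted p = 0.288). The 2 members whose groups overlapped were Gbp9 and F830016B08Rik, at log2 0.41 and -0.32.

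MHC class I genes had differences of a similar size. Of 14 members tested, 4 were called and 12 were separated upward, with a median log2 difference of 0.90. B2m, the invariant light chain of class I, stood at 972, 716 and 955 CPM in ARE+/- and at 1548, 2060 and 1430 CPM in ARE-/- ovaries (log2 0.93 ± 0.18, adjusted p = 0.187). H2-D1, the other classical heavy chain, had a log2 of 0.87 ± 0.13 (adjusted p = 0.0651). H2-Q10 and H2-T24 overlapped, at log2 -0.56 and 0.23. Among 14 genes of class I peptide processing, 3 were called and 13 separated upward, with a median of 0.51. Nlrc5, the transactivator of class I genes, was at 63.3, 52.4 and 57.4 CPM against 92.6, 138 and 98.3 CPM (log2 0.93 ± 0.14, adjusted p = 0.0737). Canx, a general chaperone of the endoplasmic reticulum, was the member with overlapping groups (log2 0.07).

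MHC class II genes, which present peptides to CD4 T cells, had 0 of 12 members called, with 11 separated upward and a median log2 difference of 1.06. Ciita, their master transactivator, stood at 36.4, 29.7 and 39.8 CPM in ARE+/- and at 75.5, 88.3 and 62.6 CPM in ARE-/- ovaries (log2 1.10 ± 0.16, adjusted p = 0.0651). Cd74, the invariant chain, stood at 1053, 903 and 1240 CPM against 2486, 2727 and 1750 CPM (log2 1.12 ± 0.21, adjusted p = 0.184). H2-Aa had 448, 357 and 513 CPM against 935, 930 and 610 CPM (log2 0.91 ± 0.22, adjusted p = 0.37). In all 3, ARE-/- replicate 6 was the lowest of its group and still above the ARE+/- libraries.

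**Figure D2:**
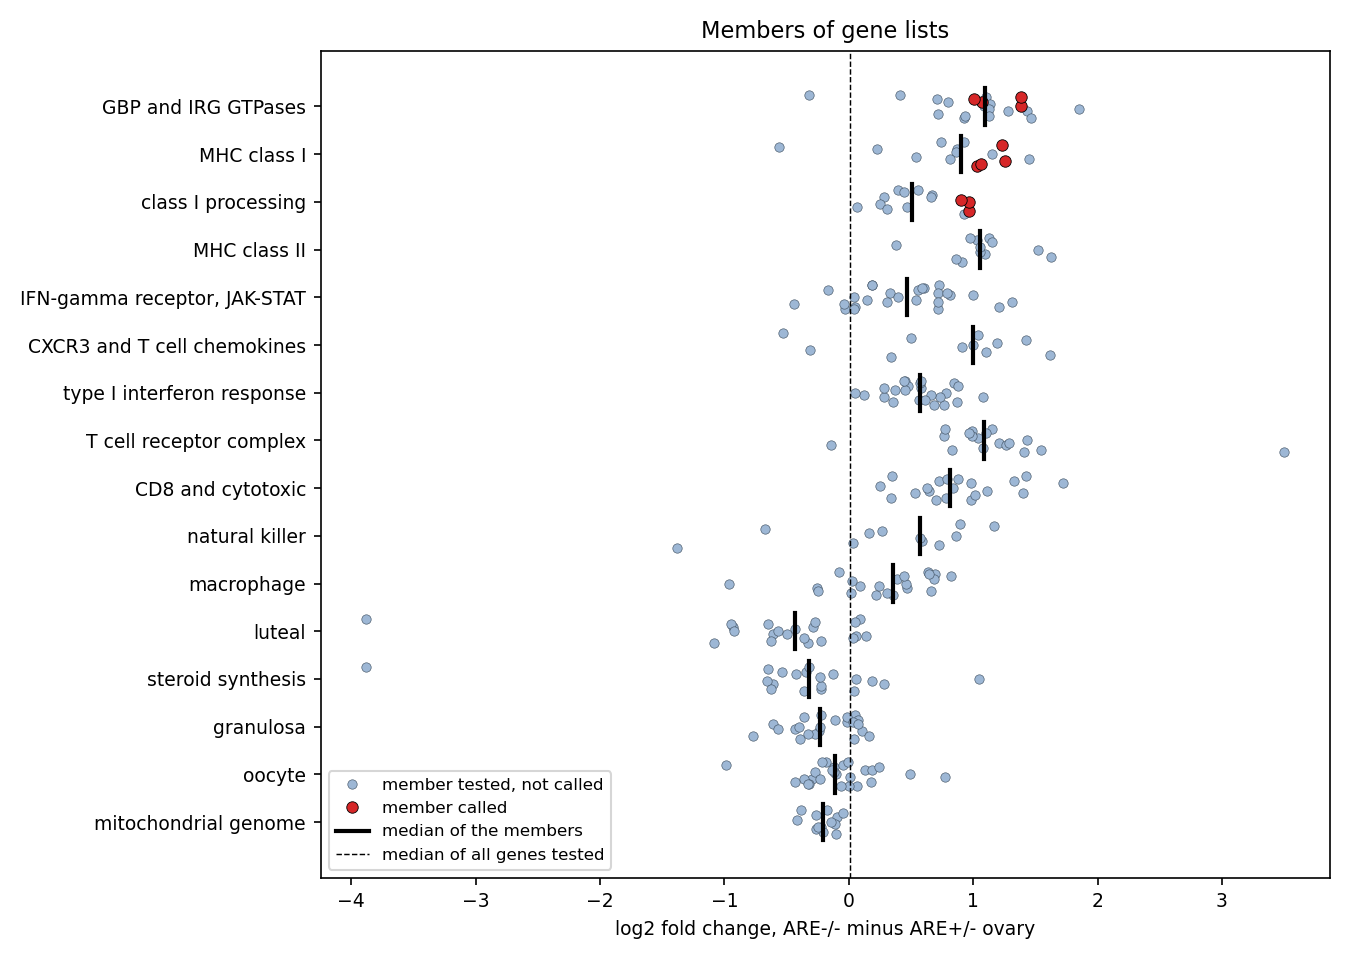
Log2 difference between ARE-/- and ARE+/- ovaries of each tested member of 16 gene lists (points, red where called), with the list's median (black bar) and the median of all genes tested (dashed line, 0.01). The medians of the GBP and IRG, MHC and T cell receptor lists lie between 0.90 and 1.10, and the luteal, steroid synthesis, granulosa and oocyte medians lie below 0.

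The signalling genes upstream of these targets differed among themselves. The receptor chains Ifngr1 and Ifngr2 had log2 differences of 0.33 and -0.03, and the kinases Jak1 and Jak2 of -0.17 and 0.05. None of them was called. Irf1, a transcription factor that interferon induces, stood at 113, 88.9 and 112 CPM in ARE+/- and at 182, 178 and 155 CPM in ARE-/- ovaries, groups that did not overlap (log2 0.71 ± 0.12, adjusted p = 0.138). Socs1, an inhibitor of the pathway, had 12.3, 14.4 and 15.5 CPM against 23.1, 20.6 and 19.9 CPM (log2 0.59 ± 0.19, adjusted p = 0.489). Over the 26 genes of the receptor and JAK-STAT list, 0 were called, 10 were separated upward and 1 downward, with a median of 0.47.

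Among chemokines and enzymes that interferon gamma induces, 0 of the 11 chemokine and chemokine receptor genes around Cxcr3 were called, with a median log2 of 1.00 and 6 separated upward. Cxcl9, a ligand of Cxcr3, stood at 34.6, 19.6 and 28.3 CPM in ARE+/- and at 59.7, 101 and 92.3 CPM in ARE-/- ovaries (log2 1.62 ± 0.27, adjusted p = 0.14). Cxcl10, another ligand, was at 17.1, 9.03 and 10.9 CPM against 19.6, 29.2 and 20.8 CPM (log2 0.91 ± 0.29, adjusted p = 0.495). Ccl5 had a log2 of 1.42 ± 0.33 (adjusted p = 0.293). Ccl3 and Ccl4 overlapped, at log2 -0.53 and -0.31. Ido1, which breaks down tryptophan, was low, at 0.209, 0.299 and 0.513 CPM against 1.35, 2.64 and 1.64 CPM (log2 2.45 ± 0.67, adjusted p = 0.414). Cd274, the ligand of the checkpoint receptor Pdcd1, had 23.3, 13.3 and 18.5 CPM against 31.7, 40.6 and 26.8 CPM (log2 0.85 ± 0.21, adjusted p = 0.362).

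Genes best known for type I interferon had no call. Of 24 members, 0 were called, 24 had a log2 difference above 0 (51.2% of all genes tested did) and 10 were separated upward, with a median of 0.58. Isg15, a ubiquitin-like protein, had 12.7, 11.1 and 14.4 CPM against 18.6, 19.5 and 13.9 CPM (log2 0.45 ± 0.21, adjusted p = 0.601). Ifit1, which binds foreign RNA, had a log2 of 0.47 ± 0.28 (adjusted p = 0.687). In both, ARE-/- replicate 6 fell within the ARE+/- range.

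**Figure D3:**
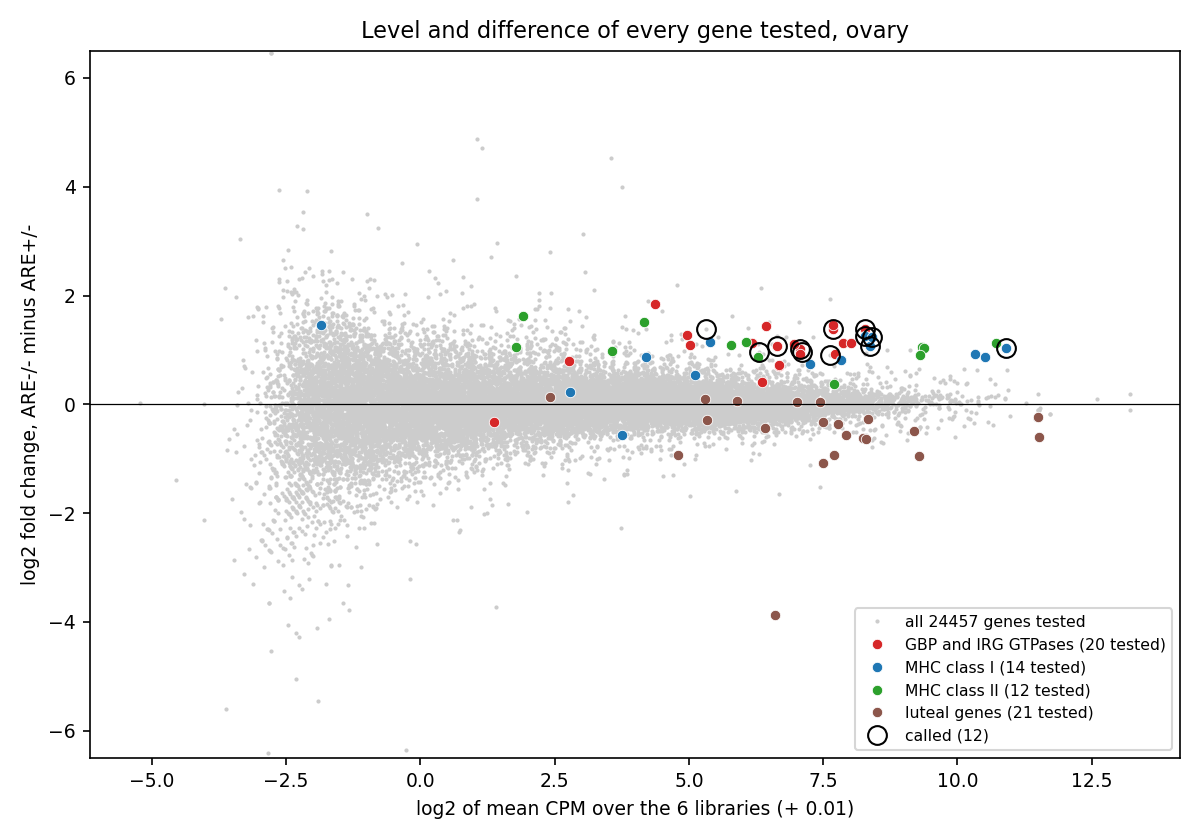
Mean level (log2 CPM, with 0.01 added) against log2 difference between ARE-/- and ARE+/- ovaries for 24457 genes. GBP and IRG, MHC class I, MHC class II and luteal genes are coloured, the 12 called genes are ringed, and 9 genes beyond ±6.5 are not drawn. The called genes have log2 differences of 0.90 to 1.39, and the luteal gene farthest down is Akr1c18, at -3.88.

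T cell transcripts were low in all ovaries and highest in ARE-/-. The summed level of 4 markers (Cd3e, Cd3d, Cd8a and Cd4) was 11.3, 10.1 and 15.8 CPM in ARE+/- and 26.0, 44.1 and 20.7 CPM in ARE-/- ovaries, with each of the 4 separated upward and 0 called. Cd8a stood at 4.42, 3.01 and 3.13 CPM against 8.66, 12.3 and 6.89 CPM (log2 1.40 ± 0.27, adjusted p = 0.187). Cd8b1, the other chain of the CD8 coreceptor, had 1.20, 1.32 and 1.18 CPM against 3.39, 5.87 and 2.98 CPM (log2 1.72 ± 0.32, adjusted p = 0.164). Cd4 had a log2 of 1.19 ± 0.36 and Cd3e of 1.21 ± 0.40 (adjusted p = 0.468 and 0.525). In a whole ovary, more T cells and more RNA per T cell cannot be told apart.

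The T cell receptor list had 0 of 18 members called, 11 separated upward and a median log2 of 1.09. The CD8 and cytotoxic list had 0 of 20 called, 10 separated upward and a median of 0.82. The granule genes Gzmb and Prf1 overlapped between groups, with 1.99, 1.13 and 3.23 CPM against 2.86, 4.98 and 3.82 CPM for Gzmb (log2 0.88 ± 0.46) and a log2 of 0.78 ± 0.39 for Prf1. The checkpoint receptor Pdcd1 had 5.02, 7.83 and 4.82 CPM against 5.67, 5.24 and 2.48 CPM (log2 -0.40 ± 0.36, adjusted p = 0.812), and Lag3 had a log2 of 0.55 ± 0.35. Of 14 checkpoint genes, 2 were separated upward, Cd274 and Cd160.

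Lists of other immune cells differed in how many members were separated, and none of their members was called. Over all genes tested 6.32% were separated upward and 6.67% downward, so a list with 0 or 1 member separated is near that share. Dendritic cell genes had 8 of 14 members separated upward and 0 downward (median log2 0.55), among them Xcr1, a chemokine receptor of cross-presenting dendritic cells, at 7.06, 3.24 and 6.93 CPM against 19.3, 10.4 and 9.72 CPM (log2 1.19 ± 0.48, adjusted p = 0.581). Macrophage genes had 0 of 21 members separated upward and a median log2 of 0.36. C1qa, a complement subunit made by macrophages, stood at 196, 125 and 213 CPM against 342, 244 and 152 CPM. Natural killer genes had 3 of 11 separated upward and 1 downward (median 0.57). B cell genes had 1 of 17 separated (median 0.78), and the heavy chain Ighm was high in 1 library of each group. It stood at 367 CPM in ARE+/- replicate 4 and 617 CPM in ARE-/- replicate 3, against 28.6 CPM in ARE-/- replicate 6, and without ARE-/- replicate 3 its log2 difference turned from 0.70 ± 1.20 to -1.05.

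**Figure D4:**
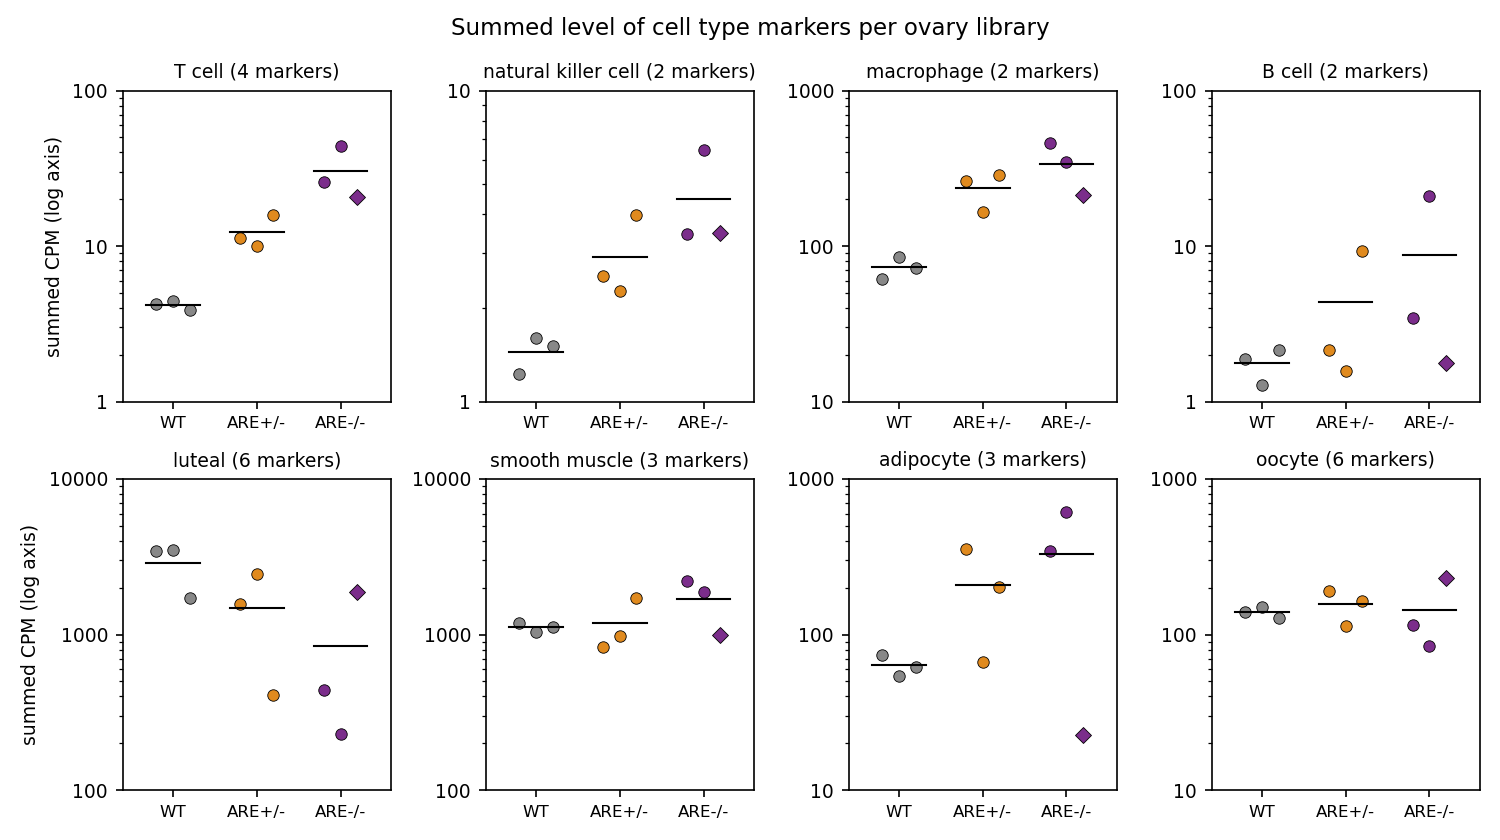
Summed CPM (log axis) of cell type markers in each ovary library, by genotype. Points are libraries, the diamond is ARE-/- replicate 6, and bars are means. The T cell sums of the ARE-/- libraries lie above those of the ARE+/- libraries, while the luteal, adipocyte, B cell and smooth muscle sums spread widely within both groups.

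Ovarian genes varied widely between the libraries of both genotypes. The summed level of 6 luteal markers was 1566, 2459 and 407 CPM in ARE+/- and 437, 231 and 1881 CPM in ARE-/- ovaries. ARE+/- replicate 4 and ARE-/- replicates 2 and 3 were thus low, and ARE-/- replicate 6 lay within the range of ARE+/- replicates 1 and 2. The part of this luteal difference in the other results was not tested. None of the 21 luteal, 19 steroid synthesis, 22 granulosa or 26 oocyte genes was called or separated upward or downward. Their median log2 differences were -0.43, -0.32, -0.23 and -0.11.

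Among genes of progesterone synthesis, Star, which brings cholesterol into mitochondria, stood at 421, 609 and 72.3 CPM in ARE+/- and at 144, 59.9 and 510 CPM in ARE-/- ovaries (log2 -0.63 ± 1.18, adjusted p = 0.929). Cyp11a1, which makes pregnenolone, stood at 3297, 5507 and 1838 CPM against 1526, 932 and 4518 CPM (log2 -0.61 ± 0.61, adjusted p = 0.841). Both show the same 3 low libraries. Akr1c18, which breaks down progesterone, stood at 14.1, 528 and 5.70 CPM against 25.1, 0.254 and 11.95 CPM. Its log2 difference of -3.88 ± 2.13 (adjusted p = 0.678) rested on ARE+/- replicate 2 and became 0.33 without it. The luteinizing hormone receptor Lhcgr had a log2 of -0.27 ± 0.68 and the prolactin receptor Prlr of -0.93 ± 0.64.

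Follicle genes gave no call either. Amh, made by granulosa cells of growing follicles, stood at 175, 112 and 215 CPM against 167, 114 and 238 CPM (log2 0.05 ± 0.30, adjusted p = 0.979). Cyp19a1, which makes estradiol, stood at 3.92, 11.2 and 53.4 CPM against 57.8, 4.57 and 8.06 CPM, with 1 high library in each group. Gdf9, an oocyte growth factor, had 50.5, 31.7 and 46.6 CPM against 32.9, 20.6 and 65.3 CPM (log2 -0.12 ± 0.38). On the log2 scale the standard errors were 0.30 for Amh, 0.38 for Gdf9 and 1.23 for Cyp19a1, and 2.13 for the luteal gene Akr1c18. Those of Cyp19a1 and Akr1c18 allow large differences of either sign.

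**Figure D5:**
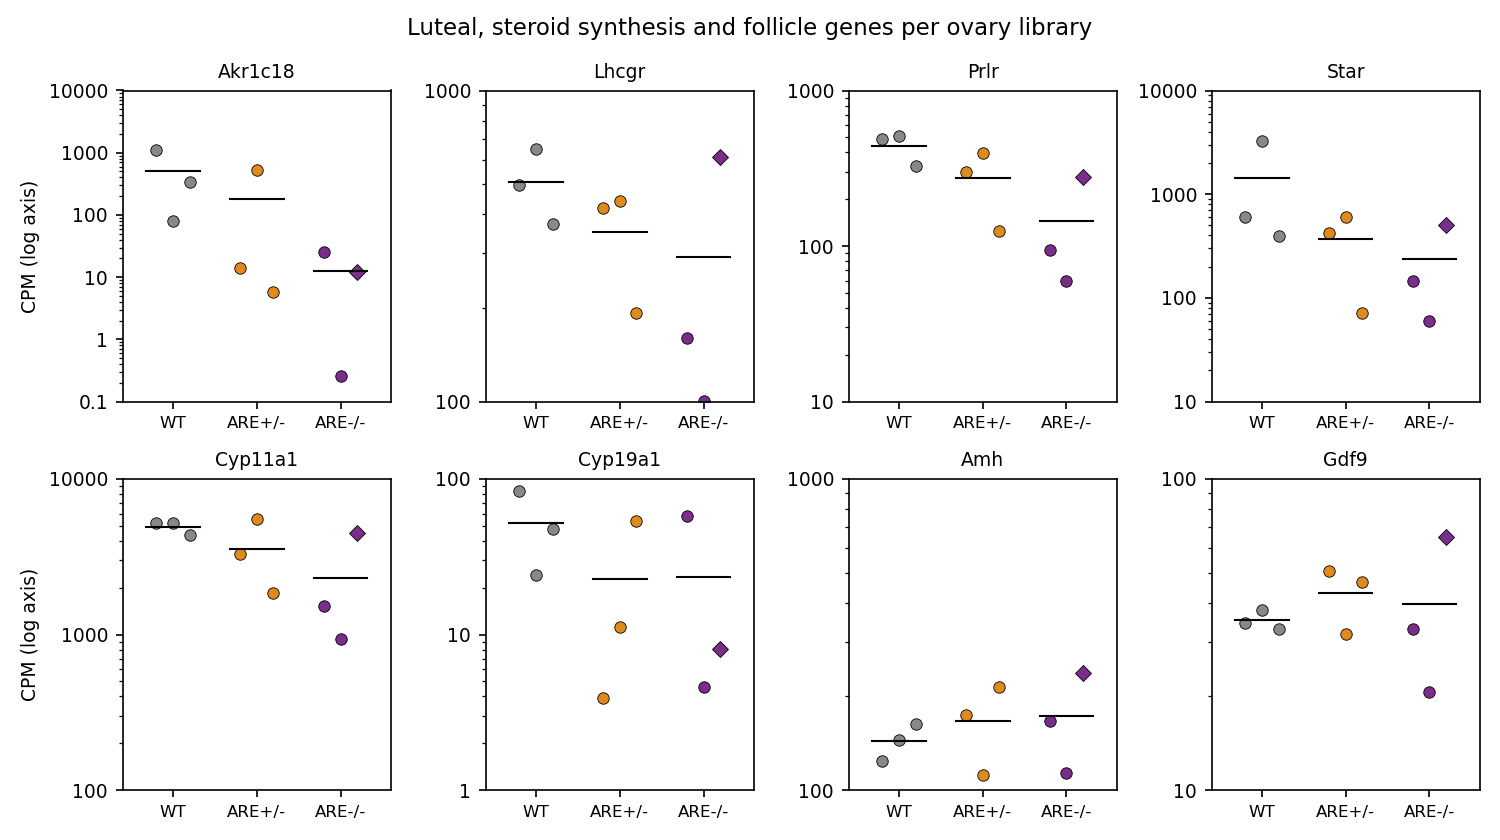
Level in CPM (log axis) of 8 luteal, steroid synthesis and follicle genes in each ovary library. Points are libraries, the diamond is ARE-/- replicate 6, and bars are means of 3 libraries. The ARE+/- and ARE-/- libraries overlap in all 8 panels, and Akr1c18 runs from 0.254 to 528 CPM over the 6 libraries.

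No gene fell in this comparison. Of the 10 genes with the lowest unadjusted p on the lower side and full separation, 9 are given, as values that did not pass. Robo1, a receptor for Slit guidance proteins, stood at 59.9, 53.1 and 43.7 CPM in ARE+/- and at 30.5, 26.4 and 35.1 CPM in ARE-/- ovaries (log2 -0.77 ± 0.15, adjusted p = 0.2). Plxna2, a semaphorin receptor, stood at 34.1, 31.4 and 30.3 CPM against 22.2, 19.2 and 23 CPM (log2 -0.57 ± 0.11, adjusted p = 0.164). Klhl11 had 14.2, 14.7 and 8.13 CPM against 6.02, 5.06 and 4.26 CPM (log2 -1.27 ± 0.24, adjusted p = 0.175). The others were Mtx3, Casc4, Cirbp, Zc3h12c, Kdm5a and Rapgef4os3, at log2 differences of -0.38 to -1.67. DESeq2 called all 9 lower, and it called 15 other named genes higher that edgeR did not call.

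The uterus of the same genotypes was compared in 1 fit over 18 libraries and 26682 genes. Between ARE-/- and ARE+/- it called 0 genes in the ovary (lowest adjusted p 0.182) and 1 in the uterus. That gene was Cxcl9 (log2 2.37, adjusted p = 0.0363). Uterus ARE-/- replicate 1 stood apart from the other 2 of its group in ovarian transcripts, with 5170 counts of Hsd3b1 against 8 and 0, 1212 of Cyp11a1 against 10 and 8, and 178 of Zp3 against 0 and 0. Log2 differences are therefore given with and without it, except for that of Cxcl9. The 12 genes had log2 differences of 0.38 to 0.90 between ARE-/- and ARE+/- uteri, and of 0.39 to 1.08 without that library. They were chosen by their call in the ovary, which favours larger values there. Over all 18 libraries Irgm1 differed by 0.99 in the ovary and 0.39 in the uterus, and H2-Q4 by 1.05 and 0.38. Without that library Irgm1 differed by 1.00 and 0.50, and H2-Q4 by 1.06 and 0.40. The whole GBP and IRG list had medians of 1.08 in the ovary and 0.94 in the uterus, with 12 of 20 members higher in the ovary. Without uterus ARE-/- replicate 1 these were 1.09 and 1.05, with 8 of 20. MHC class I genes had medians of 0.89 and 0.45 over all 18 libraries, with 12 of 14 higher in the ovary. Leaving out uterus ARE-/- replicate 1 gave 0.89 and 0.44, with 13 of 14. The difference between tissues was called by edgeR for 0 genes (lowest adjusted p 0.946, with 1393 genes at an unadjusted p under 0.05), and for 0 without uterus ARE-/- replicate 1. Type I interferon genes had a median of 0.56 in the ovary and -0.24 in the uterus in this fit, and 23 of 24 members had the higher value in the ovary, against 46.3% of all genes. Without uterus ARE-/- replicate 1 the medians were 0.57 and -0.17, with 22 of 24 higher in the ovary against 51.1% of all genes. Other lists leaned the other way, with 0 of 19 steroid synthesis genes, 0 of 13 adipocyte genes and 0 of 13 mitochondrial transcripts higher in the ovary, and 6, 0 and 3 without that library. For Isg15 the values over all 18 libraries were 0.43 in the ovary and -0.56 ± 0.31 (SE) in the uterus, and without uterus ARE-/- replicate 1 they were 0.44 and -0.71.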

How the data were processed

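Total RNA of mouse ovary was sequenced with paired ends, per the labels' protocols. The authors deposited whole-number counts per gene from featureCounts 2.0.4 with GENCODE M32 as the annotation, per the file headers. Those headers show that mates were counted singly, that a read was counted for every place and gene it matched, and that no strand was used. STAR and the build mm10 are named in the submitters' processing notes. M32 belongs to a later build, so gene coordinates are given only as the files state them. The authors' deposited table holds a DESeq2 likelihood-ratio test over WT, ARE+/- and ARE-/- ovaries together, with adjusted p-values and log2 fold changes. It lists all 12 called genes under their threshold of 1e-04. A gene can pass that test by its difference from WT alone, so it is not a test of ARE-/- against ARE+/-. Its values entered no test here.

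Groups follow the labels for tissue, genotype and replicate number. The test was edgeR's robust quasi-likelihood F-test (version 4.0.16, R 4.3.3) after filterByExpr and TMM, with 1 mean per genotype over 9 libraries and the contrast ARE-/- minus ARE+/-. Benjamini-Hochberg adjustment ran over all 24457 genes, and 0.05 was the threshold. The SE of a log2 difference is its size over the root of F. A symbol was given for 91.3% of IDs. The step difference was tested in the same fit, and the difference between tissues over all 18 libraries. The script was tested on simulated data. Alternatives were DESeq2 1.42.0, other scalings and filters, counts divided by 2, no robust estimation, the 6 libraries alone, and each library left out. No library was a copy of another: the chi-square per degree of freedom over genes was at least 25.9 for any pair. Gene lists (41 lists, 670 genes, 644 tested) are described by counts and medians, with no test of a list. The members and lists were chosen with earlier results of these data known.

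Named genes were a set of 55 interferon, immune and ovarian genes given whatever their result, and the 10 called rises of largest log2 difference with full separation and a mean of at least 1 CPM. Since no gene fell, the 10 separated genes of lowest unadjusted p on the lower side were added. Psmb9 and Tap1 complete the called genes. Of these named genes, 3 are not reported here. Other list members are named to show the range of a list. Promoter sequences are RefSeq's (GRCm38.p6), and figures were drawn with matplotlib 3.10.9.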

Additional observations from a re-analysis of the deposited data

How the results depend on the processing

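The number of genes called higher between ARE-/- and ARE+/- ovaries (12) depended on the settings, while the sizes of the differences moved little. It was 12 with DESeq2's size factors in edgeR (the same 12), 6 with total counts only and 6 with counts divided by 2 (6 of the 12 in each case), 34 with no filter on low counts and 152 with DESeq2 (all 12 in both), and 0 with at least 1 CPM in 3 libraries, without robust estimation or in the 6 libraries alone. The largest adjusted p of the 12 under the last 3 settings was 0.0611, 0.0763 and 0.213. The fit over all 18 libraries of both tissues called 0 as well (lowest adjusted p 0.182). Leaving out 1 library gave 0 to 14 higher genes, of which 0 to 8 were among the 12. The 2 genes called without ARE-/- replicate 2 were Hsph1 and Banp, neither of them among the 12. Genes called lower numbered 0, but 4 with no filter on low counts (Cirbp, Klhl11, Robo1 and 1 gene without a symbol) and 45 with DESeq2. The second step was called smaller than the first for 3 genes with no filter and for 0 to 1 genes without 1 library. The difference between tissues stayed at 0 calls under all 18 alternatives run. Where a single library decided, the cause was not tested.

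Of 1206 comparisons of a named gene with an alternative, 1017 kept their direction and side of the threshold, 139 were no longer called, 31 became called and 19 changed sign. All 19 were leave-one-out values of genes that were not called. Over the 9 libraries left out in turn, the log2 difference ran from -1.05 to 2.24 for Ighm, -4.90 to 0.33 for Akr1c18, -0.54 to 0.056 for Hsd3b1, -1.85 to 1.62 for Cyp19a1, -1.43 to 0.13 for Lhcgr, -0.25 to 0.28 for Amh, -0.68 to 0.20 for Gdf9, -0.64 to 0.18 for Zp3, -1.25 to 0.0028 for Hmgcs1 and -0.018 to 1.23 for Col1a1. No paired analysis was possible because the ARE-/- and ARE+/- ovary libraries share only replicate number 2. The precision is limited by 3 libraries per group: the standard errors of Star, Cyp11a1, Lhcgr and Prlr were above 0.5 on the log2 scale, so differences of that size in these genes were not resolved.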

Other observations

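Chaperone genes were looked at because several stood among the genes of lowest unadjusted p, so the lists here were chosen after their values were seen and were not tested as lists. Of 15 heat shock chaperone genes, 14 had a log2 difference above 0 between ARE-/- and ARE+/- ovaries and 9 were separated upward, with a median of 0.48. None of the 15 was called. Over all genes tested, 51.2% lay above 0 and 6.32% were separated upward. Hsph1, a nucleotide exchange factor for Hsp70 proteins, stood at 84.1, 86.1 and 96.5 CPM in ARE+/- and at 135, 179 and 221 CPM in ARE-/- ovaries (log2 1.00 ± 0.15). Hspb1, a small heat shock protein, stood at 82.9, 75.3 and 81.2 CPM against 125, 168 and 124 CPM (log2 0.80 ± 0.13). The heat-inducible pair Hspa1a and Hspa1b overlapped between the groups, and as near copies they can share reads. Of 10 chaperones of the endoplasmic reticulum, 10 were above 0 and 8 separated upward (median 0.41), among them Creld2 at 53.3, 52.3 and 55.2 CPM against 81.4, 109 and 113 CPM. The cold-inducible RNA-binding gene Cirbp went the other way, at 89.6, 99.4 and 84.9 CPM against 63.8, 43.6 and 60.7 CPM. From WT to ARE+/-, the medians of the heat shock and endoplasmic reticulum lists were -0.13 and 0.04. The WT ovaries had 122, 111 and 122 CPM of Hsph1, above the ARE+/- levels (log2 -0.41 from WT to ARE+/-). For Hspb1 that difference was 0.16. Chordc1 stood at 63.8, 72.0 and 64.7 CPM in WT and at 45.9, 51.7 and 53.1 CPM in ARE+/- ovaries. Its ARE-/- levels of 62.9, 71.6 and 76.3 CPM were thus near those of WT. ARE-/- replicate 6 was the highest library for Hsph1, Hspa8, Hsp90aa1 and Creld2, among others, while it was the highest for 0 of the 12 called genes. It was the lowest of the ARE-/- libraries for Hspb1, Hspa1a, Hspa1b, Bag3 and Cryab.

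The 13 protein-coding transcripts of the mitochondrial genome all had a log2 difference below 0, with a median of -0.21. Of these, 4 were separated downward, against 6.67% of all genes tested, and 0 were called. The largest differences were in mt-Nd4l, at 752, 712 and 698 CPM against 591, 541 and 491 CPM (log2 -0.41 ± 0.10), and mt-Nd5 (log2 -0.39 ± 0.10). Both encode subunits of respiratory complex I, and all 13 transcripts come from 1 genome, so they are not independent. From WT to ARE+/- the median of the 13 was -0.28, so the first step was already downward.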
